A study of Homo sapiens with 18 samples.

Results

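The genes described here encode the proteins of the cytosolic ribosome. They were taken as every gene symbol that begins with RPL or RPS and goes on with a number, with P before it or A or X after it where present, plus RPSA, provided that its coding sequence (CDS) held at least 100 ribosome footprints summed over 9 libraries. All 77 symbols that matched the pattern met the minimum, of 38716 symbols in the tables, and they comprised 46 proteins of the large and 31 of the small subunit. Each ribosome holds its proteins in nearly equal numbers, and surplus copies that find no partner are degraded. Most of these mRNAs begin with a C followed by a run of pyrimidines, the 5′ terminal oligopyrimidine (TOP) motif, through which growth signals acting by the mTOR kinase raise or lower their translation together. Ribosomal protein mRNAs are among the most abundant messages of dividing fibroblasts.

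IMR90 cells, a line of human fetal lung fibroblasts, were compared in 3 conditions. The young cells were proliferating and of low passage, the old cells had been passaged until replicative senescence, and the ICM cells were of low passage and had received inflachromene, a compound whose targets are HMGB1 and HMGB2, abundant DNA-bending proteins of chromatin. In each condition 3 cultures were lysed with cycloheximide. Part of every lysate went to ribosome profiling (Ribo-seq), in which the stretches of mRNA covered by ribosomes are sequenced, and part to mRNA-seq of poly(A) RNA, so that both libraries of a replicate share a lysate. All cells were of 1 line, and the labels do not say whether the young cells received the vehicle of the compound. They give no preparation dates, so date and condition cannot be told apart. In bulk RNA, fewer cells of a kind and less RNA per cell cannot be told apart.

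Sequencing depth differed widely between the footprint libraries. CDS footprints numbered 54421 to 1718521 in young, 54708 to 1672807 in old and 46239 to 225041 in ICM libraries, while mRNA-seq libraries held 7902427 to 14144455 reads in UTRs and CDS. In Ribo-seq young 1 and old 2, only 34.35% and 14.98% of reads lay in CDS, and 9 genes that were high in ICM summed to 673 and 825 CPM (read counts scaled to a common library size) there against 70.0 to 94.6 CPM in the other young and old libraries. In Ribo-seq ICM 3, 53 genes that were high in young and low in ICM summed to 1872 CPM, against 118 and 396 CPM in ICM 1 and 2, although their mRNA summed to 45.2 to 47.2 CPM in all 3 ICM lysates. These 3 libraries were the shallowest of their conditions. Some counts and single-gene values are given without them as well, where stated, and all other values include them. Fibroblast markers summed to 11140 to 31880 CPM in mRNA-seq, whereas EPCAM, CDH1, PTPRC, PECAM1 and CDH5, which mark epithelial, blood and endothelial cells, reached 1.06 CPM at most. KRT8, a keratin of simple epithelia, was at 16.5 to 32.9 CPM, and its part in the results was not tested.

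Windows of 30 bases around the annotated start are shown for the genes on which the results below turn, since they carry, or lack, the TOP motif at that base. They come from RefSeq (GRCh38.p14) and hold 12 bases before the start and 18 bases from it, 5′ to 3′ on the gene's strand. Capitals mark the unbroken pyrimidine run that begins at the start.
RPS3 at chr11:75399506-75399535, plus strand: cgcgagccacttCCTTTCCTTTCagcggag
RPS14 at chr5:150449722-150449751, minus strand: ccccctcccactCTCTCTTTCCggtgtgga
RPS18 at chr6:33272063-33272092, plus strand: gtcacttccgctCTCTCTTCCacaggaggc
RPS6 at chr9:19380219-19380248, minus strand: cggaagttggccCTCTTTTCCgtggcgcct
RPS27 at chr1:153990750-153990779, plus strand: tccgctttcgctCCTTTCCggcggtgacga
RPL14 at chr3:40457327-40457356, plus strand: cgggtcttcttcCTTCTCgcctaacgccgc
RPL28 at chr19:55385920-55385949, plus strand: cccctcgccttcCTCTTTCCgtctcaggtc
RPL34 at chr4:108620564-108620593, plus strand: ggcttttttcttCCTCTTCCggggacgttg
RPL36A at chrX:101390999-101391028, plus strand: gcctcgcggtttCTTTCTTTCCgcgccgat
RPL39 at chrX:119791613-119791642, minus strand: ttccgccagcttCCCTCCTCTTCCTTTCTC
RPL4 at chr15:66504838-66504867, minus strand: agcgggagtggtaagcacttccttttcctg
RPS4X at chrX:72277231-72277260, minus strand: gtctccagccccaatttctacgcgcaccgg
RPS26 at chr12:56041906-56041935, plus strand: acacataacctcgattttcttccgccatcc
The first 10 windows begin with a C and at least 4 further pyrimidines, and the last 3 do not. Of 62 genes with a RefSeq start, 42 (67.7%) had this motif exactly at the start, compared with 4.04% of all genes in the same table. With 5 bases before to 10 bases after the start allowed, it was found in 50 (80.6%) of them and in 21.1% of all genes. The motif was read on the gene's strand only, and it stood at the start in 25 of 38 large-subunit and 17 of 24 small-subunit genes.

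Ribosomal protein genes took up a smaller share of the mRNA in old and in ICM cells. Their reads made up 6.29%, 6.06% and 5.69% of mRNA-seq reads in young 1 to 3, 3.83%, 4.06% and 3.28% in old, and 3.49%, 3.52% and 3.41% in ICM. Every old and ICM library lay below every young library. The share of footprints was 4.87%, 4.30% and 4.24% in young, 3.41%, 3.22% and 3.21% in old, and 3.35%, 3.21% and 3.91% in ICM. All old and ICM libraries again lay below all young ones, and the ICM 3 library, with 1809 footprints in these genes, was nearest to them. Exact binomial 95% intervals, which cover counting error only, were 3.74% to 4.09% for ICM 3 and 4.21% to 4.27% for young 3.

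**Figure D1:**
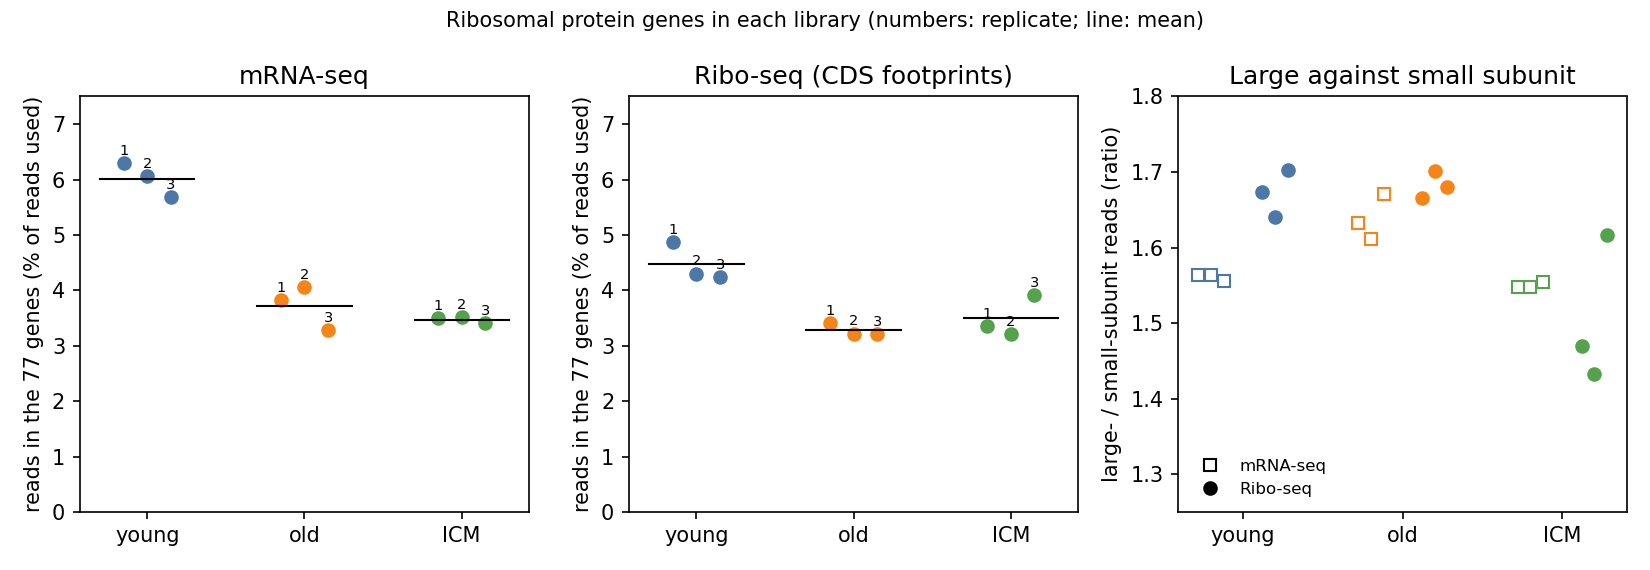
The left and middle panels plot the percentage of reads in the 77 ribosomal protein genes for each mRNA-seq and Ribo-seq library (points, numbered by replicate; lines, means of 3), and the right panel plots the ratio of large- to small-subunit reads (open squares, mRNA-seq; filled circles, Ribo-seq) on an axis that does not start at 0. Young libraries lie highest in the first 2 panels (6.01% and 4.47% on average), and for Ribo-seq ICM lies lowest in the third (1.43 to 1.62).

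At the mRNA level, nearly the whole set fell in ICM compared with young. edgeR's quasi-likelihood test, with Benjamini-Hochberg adjustment over 13173 genes and a threshold of 0.05, called 75 of 77 genes lower and 0 higher, where 36.1% of all genes tested were called lower and 34.9% higher. The median log2 change was -0.80, a 1.74-fold lower level, against -0.01 over all genes, and all 77 values were below 0. For 75 genes, all 3 ICM libraries lay below all 3 young libraries, as they did for 37.6% of all genes, and for 0 they lay above (36.9% of all genes). Only RPS26, a small-subunit protein next to the mRNA exit channel, and RPS28 did not pass, with log2 changes of -0.08 ± 0.07 (SE, adjusted p = 0.314) and -0.17 ± 0.08 (adjusted p = 0.0586).

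The changes within the set ran from -1.67 to -0.08. RPL3, which helps to shape the peptidyl transferase centre, was at 1968, 1865 and 1732 CPM in young, 1000, 1005 and 877 CPM in old, and 591, 590 and 563 CPM in ICM. The 3 conditions did not overlap, and the log2 change of RPL3 from young to ICM was -1.67 ± 0.07 (SE, adjusted p = 1.63e-15). RPL12, a protein of the stalk base, and RPL14 followed with changes of -1.48 and -1.36. At the other end stood RPS26 and RPS28 and then RPS19, the gene most often mutated in Diamond-Blackfan anaemia, with a fall of 0.36 (adjusted p = 0.000107). RPS26, the other exception, was at 137, 128 and 120 CPM in young, 120, 123 and 106 CPM in old, and 121, 126 and 118 CPM in ICM, and these ranges overlapped. The mRNA-seq values of RPS26 were fractional in all 9 libraries, which shows that its reads were divided with other symbols. Its pseudogene symbol RPS26P11 held 6204.7 mRNA-seq reads in all, so the level of RPS26 is uncertain.

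Old cells had lower mRNA for 76 of 77 genes compared with the same young libraries (33.7% of all genes called lower), and 0 genes were called higher (32.4%). The median change was -0.56, or 1.47-fold lower. RPS26, whose mRNA-seq reads were divided with other symbols, alone did not pass (-0.14 ± 0.07, adjusted p = 0.0762). In 74 genes the old and young libraries did not overlap, with old lower, as in 34.4% of all genes. In 0 genes old lay above young (32.7% of all genes). RPL36A, a large-subunit protein at the tRNA exit site, was lowest. Its mRNA stood at 206, 184 and 174 CPM in young, 91.7, 102 and 66.0 CPM in old, and 76.4, 81.9 and 74.6 CPM in ICM. RPL36A fell by 1.11 in old (adjusted p = 2.90e-09) and by 1.28 in ICM (adjusted p = 2.15e-10). RPL3 and RPS23, a protein of the decoding centre, fell by 0.95 and 0.93 in old, whereas RPLP2, an acidic protein of the stalk that recruits translation factors, fell by 0.22 and RPL27 by 0.23.

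Compared with old, 48 genes were lower in ICM mRNA (32.6% of all genes called lower) and 2 were higher (30.7%), with a median change of -0.25, and 69 of 77 values were below 0. In 31 genes ICM lay below all old libraries (33.7% of all genes) and in 0 above (32.6%). RPL3, RPL14 and RPL12 again had the lowest values (-0.72, -0.66 and -0.55, all called). Among the genes called higher was RPS27, a zinc-finger protein of the small subunit (0.25 ± 0.11, adjusted p = 0.0455). With CDS reads alone, the value for RPS27 was -0.012 (adjusted p = 0.957). RPL5 and RPL11, which bind MDM2 when ribosome assembly is disturbed, had ICM to old values of 0.0016 (adjusted p = 0.987) and -0.37 (adjusted p = 0.00113).

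The same genes were described at the level of translation by their CDS footprints, of which 4643 genes could be tested. In ICM compared with young, 23 of 77 genes had fewer footprints (12.9% of all genes called lower) and 0 had more (13.7%). The median change was -0.41, and 67 of 77 values were below 0. In 29 genes the ICM libraries lay below all young libraries, and in 1 gene above, against 16.9% and 13.5% of all genes. Leaving out ICM 3 raised the number called to 35, and leaving out young 2 lowered it to 13.

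RPL36A had the lowest footprint value of the set. It held 12.7, 116 and 316 estimated footprints in young, 220, 3.7 and 66.3 in old, and 11, 0.5 and 1.2 in ICM, which is 258, 185 and 201 CPM, then 156, 80.5 and 135 CPM, then 54.2, 0 and 22.8 CPM after rounding to whole reads. ICM lay below both other conditions in all 3 libraries. The log2 change from young was -2.42 ± 0.43 (SE, adjusted p = 4.47e-05) and from old -1.96 ± 0.45 (adjusted p = 0.00185). This rests on fewer than 15 ICM footprints, and values that are not whole show that reads of RPL36A were divided with other genes. Its near copy RPL36AL had 256 CPM of footprints in young and 221 CPM in ICM (log2 -0.54, adjusted p = 0.18), with an mRNA change of 0.09 (adjusted p = 0.329).

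RPL39 and RPL34 had the next lowest footprint values in ICM. RPL34 had 654, 548 and 589 CPM in young, 459, 362 and 384 CPM in old, and 281, 177 and 251 CPM in ICM, with no overlap between conditions, and all its reads were whole. Its footprints fell by 1.23 ± 0.23 from young to ICM (SE, adjusted p = 0.000115), by 0.48 from young to old and by 0.75 from old to ICM (adjusted p = 0.038 and 0.0294). RPL39, which lines the exit tunnel, had 436, 166 and 141 CPM in young and 83.8, 54.6 and 22.8 CPM in ICM, a fall of 1.33 ± 0.41 (adjusted p = 0.0147) that rests on about 22 estimated footprints in ICM. Without ICM 3, the log2 changes of RPL36A and RPL39 were -2.41 and -1.23, and all 3 genes were still called. RPL3, with 1169, 1128 and 1170 CPM in young and 498, 600 and 594 CPM in ICM, fell by 1.07 (adjusted p = 5.29e-05), and RPL22, which is dispensable for general translation, also fell by 1.07 (adjusted p = 0.00635).

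In old compared with young, 24 genes had fewer footprints (17.0% of all genes called lower) and 1 had more (19.3%), with a median of -0.38. In 46 genes the old libraries lay below all young libraries (18.6% of all genes), and in 1 gene above (20.3%). The lowest were RPS23 at -1.02 ± 0.20 (adjusted p = 0.000162), RPL12 at -0.94 and RPL23A, which binds the signal recognition particle at the tunnel exit, at -0.88. The gene with more footprints was RPL28, with 852, 507 and 555 CPM in young, 800, 704 and 880 CPM in old and 458, 450 and 434 CPM in ICM. It rose by 0.49 ± 0.18 in old (adjusted p = 0.0335), although young 1 lay within the range of old, and ICM lay below all other libraries (-0.85 from old, adjusted p = 0.00451). The count of 25 depended on libraries. It was 14 without old 2, 5 without old 3, 5 without young 2 and 8 without young 3. DESeq2 called 6, against 530 of 4643 genes in all.

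Between ICM and old, 5 genes had fewer footprints in ICM (RPL3, RPL28, RPL32, RPL34 and RPL36A; 7.62% of all genes called lower) and only RPS27 had more (5.79% called higher). The median was -0.03. In 12 genes ICM lay below all old libraries (13.6% of all genes) and in 2 above (9.33%). RPS27 was at 258, 368 and 313 CPM in young, 302, 201 and 238 CPM in old, and 330, 477 and 1096 CPM in ICM. It rose by 0.99 ± 0.28 from old to ICM (adjusted p = 0.0127), but the value without ICM 3 was 0.40 (adjusted p = 0.318). The 5 genes that were lower all belong to the large subunit, but their share of the set was no higher than that of all genes called lower. Their calls were lost in 12 (RPL3), 8 (RPL34), 5 (RPL32) and 1 (RPL28) of 22 alternative settings. That of RPL36A was lost in 0 of 21. Without old 1 the count of 6 became 3, and without old 3 it became 2.

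**Figure D2:**
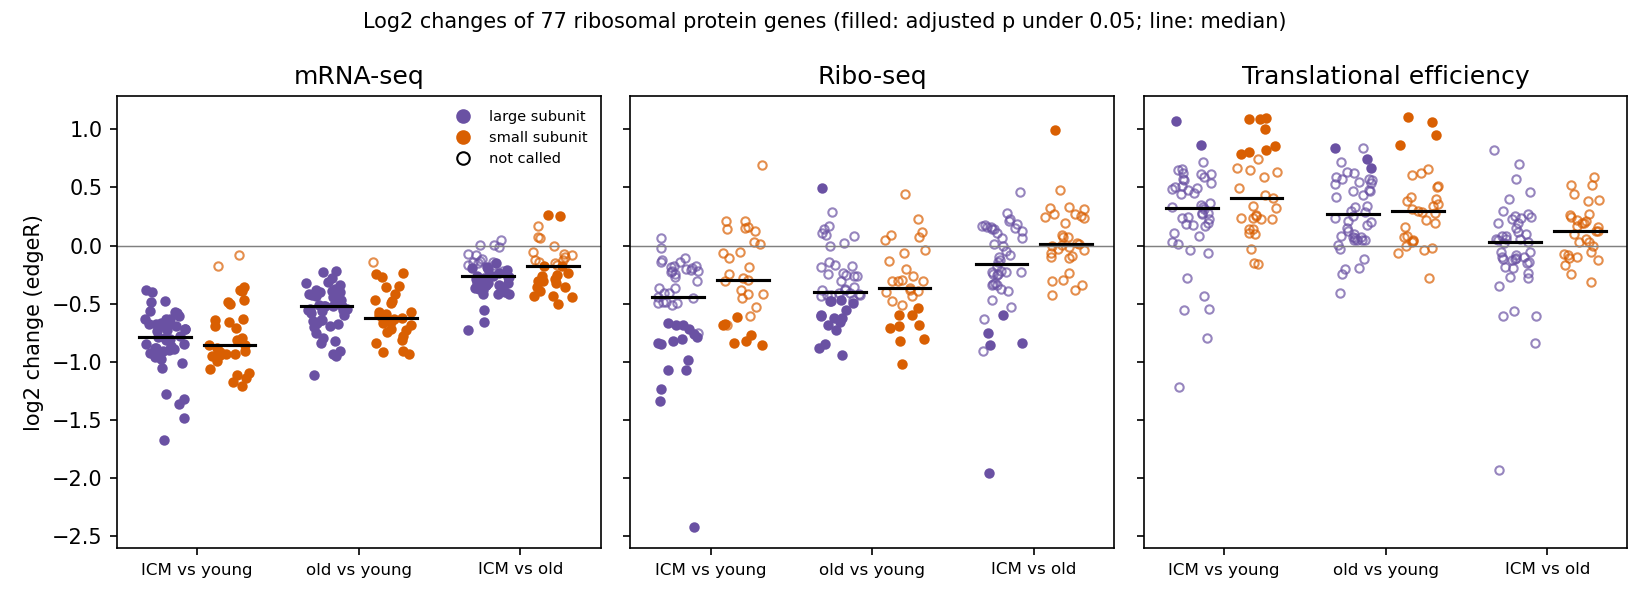
Each point is the log2 change of 1 ribosomal protein gene in mRNA-seq (left), Ribo-seq (middle) or translational efficiency (right) for the 3 comparisons, with large- and small-subunit genes in separate columns, filled where adjusted p was under 0.05 and with a line at the median. mRNA medians of all genes of the set lie at -0.80, -0.56 and -0.25, footprint medians at -0.41, -0.38 and -0.03, and efficiency medians at 0.34, 0.29 and 0.05.

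The median footprint changes were closer to 0 than those of mRNA, and the difference was tested gene by gene as translational efficiency, the change in footprints relative to the change in mRNA, in a model over all 18 libraries that kept the shared lysate as a block. In ICM compared with young, efficiency rose in 10 of 77 genes (1.41% of 4618 genes called higher) and fell in 0 (1.04% called lower). The median was 0.34, against 0.06 over all genes, and 66 of 77 values were above 0. At an unadjusted p under 0.05 there were 29 genes. The share of all genes at that unadjusted level was not counted, here or in later paragraphs. Such counts therefore have no background to be read against. The genes that rose included RPL4, RPL14, RPS3, RPS4X, RPS6, RPS7, RPS14, RPS18 and RPS27. In 28 genes the log2 ratio of footprints to mRNA was higher in all ICM lysates than in all young lysates (9.42% of all genes), and in 3 lower (7.47%).

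RPS3, a protein at the mRNA entry of the small subunit, shows how the ratio moved. Its mRNA was at 1243, 1268 and 1178 CPM in young, 682, 723 and 565 CPM in old, and 544, 537 and 516 CPM in ICM. Its footprints were at 1109, 925 and 856 CPM in young, 897, 805 and 821 CPM in old, and 961, 791 and 776 CPM in ICM. The mRNA did not overlap between conditions, while the footprints of ICM and young did (-0.10 ± 0.19, adjusted p = 0.717). Efficiency rose by 1.09 ± 0.19 in ICM (SE, adjusted p = 0.000272) and by 0.87 ± 0.17 in old (adjusted p = 0.00218). All RPS3 reads were whole numbers, as were those of RPS6. The call for RPS3 was lost in 3 of 23 alternative settings in ICM and in 6 in old.

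RPL4, which reaches into the exit tunnel, was the large-subunit gene with the highest efficiency change in ICM compared with young. The log2 ratio of footprints to mRNA was -0.66, -0.49 and -0.12 in young, 0.07, 0.30 and 0.35 in old, and 0.77, 0.38 and 0.93 in ICM, so that each condition occupied a range of its own. Efficiency rose by 1.07 ± 0.19 in ICM (adjusted p = 0.000368), a call that was lost in 2 of 23 settings. In old it rose by 0.67 ± 0.18 (adjusted p = 0.0491), and this call was lost in 18 of 23 settings. Values of RPL4 were fractional in 0 Ribo-seq libraries and in 1 mRNA-seq library. RPS14 and RPS18, proteins of the platform and head of the small subunit, were among the highest in both comparisons.

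The log2 ratio of RPS14 was 0.42, -0.24 and 0.02 in young, 1.02, 0.54 and 1.17 in old, and 0.99, 0.87 and 1.13 in ICM. All old and ICM lysates lay above all young ones, and efficiency rose by 1.00 ± 0.22 in ICM (adjusted p = 0.0082) and by 1.11 ± 0.19 in old (adjusted p = 0.000212). For RPS18 the ratio was -0.20, -1.02 and -1.18 in young, -0.02, -0.85 and 0.53 in old, and 0.14, 0.17 and 0.21 in ICM. Young and ICM did not overlap, while old 2 lay within the young range. RPS18 rose by 1.09 ± 0.25 in ICM (adjusted p = 0.00913) and by 1.06 ± 0.22 in old (adjusted p = 0.00354). The RPS14 calls were lost in 6 of 23 settings in each comparison, and the RPS18 calls in 7 in ICM and 8 in old. Reads of RPS14 and RPS18 were partly fractional, and the pseudogene symbols RPS14P3 and RPS18P9 held 932 and 1841.5 footprints in all. With the reads of pseudogene symbols added to their parent genes, a setting chosen after the data were seen, 10 genes rose in ICM and 6 in old.

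Other genes that rose in ICM did so with smaller values or less evenly. RPS4X, the X-linked copy of RPS4, had ratios of -0.41, -0.21 and -0.09 in young and 0.68, 0.59 and 0.57 in ICM (0.82 ± 0.19, adjusted p = 0.0105). RPS7 rose by 0.86 (adjusted p = 0.027), and RPS6, the substrate of S6 kinase, rose by 0.81 (adjusted p = 0.0421). In RPS4X, RPS6 and RPS7 the ICM and young ratios did not overlap. These calls were less stable, and were lost in 11 (RPS4X), 13 (RPS7) and 17 (RPS6) of 23 settings. Those of RPL14 and RPS27 were lost in 18 and 11 settings and depended on ICM 3. The ratio of RPL14 was 0.50, 0.48 and 1.60 in ICM, and that of RPS27 was -0.26, -0.05 and 1.42. Their changes of 0.87 (adjusted p = 0.042) and 1.09 (adjusted p = 0.0239) became 0.50 (adjusted p = 0.289) and 0.53 (adjusted p = 0.268) without that lysate, as RPS6 became 0.60 (adjusted p = 0.153). Reads of RPS4X, RPS7, RPL14 and RPS27 were partly fractional, in 6, 8, 2 and 4 Ribo-seq libraries and 7, 5, 0 and 1 mRNA-seq libraries.

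**Figure D3:**
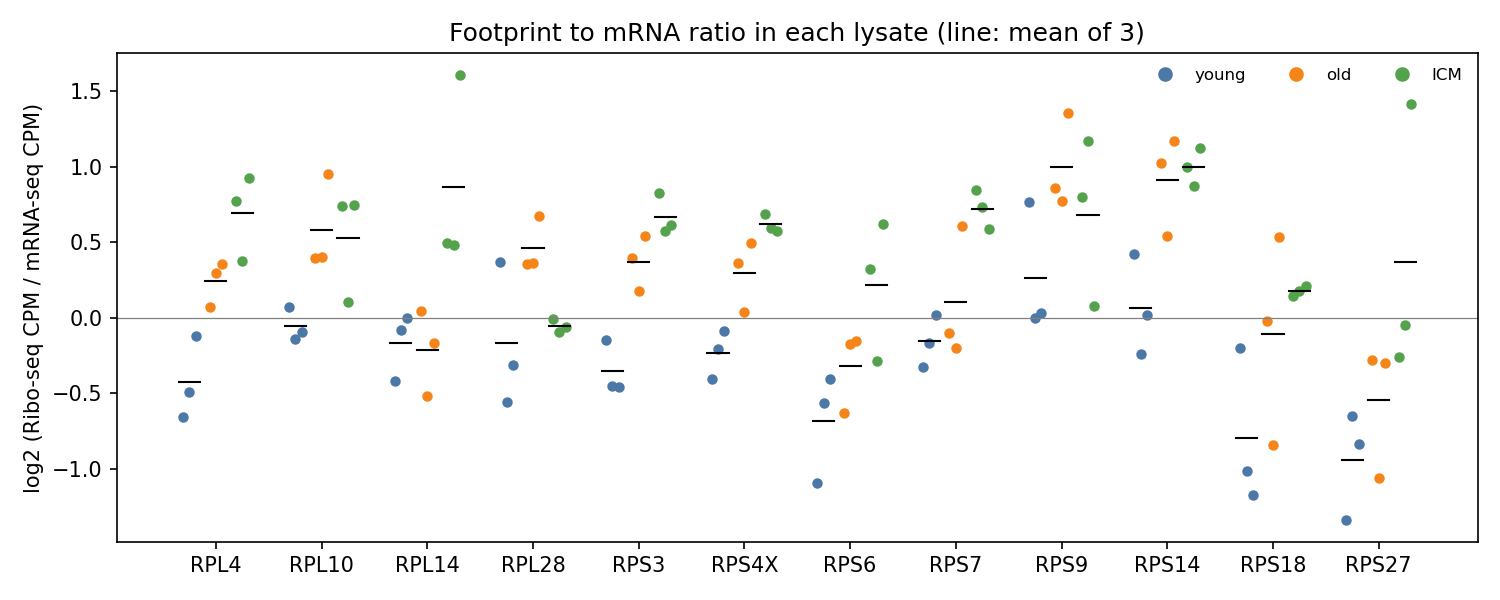
Log2 ratio of Ribo-seq to mRNA-seq CPM in each lysate (points; lines, means of 3) for 12 ribosomal protein genes whose translational efficiency was called higher in ICM or old compared with young. ICM points lie above all young points for RPS3 (0.57 to 0.82 against -0.46 to -0.15) and RPL4, and the ICM 3 point stands above the rest for RPL14 (1.60) and RPS27 (1.42).

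In old compared with young, efficiency rose in 7 genes (RPL4, RPL10, RPL28, RPS3, RPS9, RPS14 and RPS18; 0.845% of all genes called higher) and fell in 0 (0.606% called lower), with a median of 0.29 against 0.05 over all genes. At an unadjusted p under 0.05 there were 29 genes. Per lysate, the median log2 ratio over the 77 genes was -0.19, -0.24 and -0.14 in young and 0.06, -0.20 and 0.29 in old. In ICM it was 0.16, -0.05 and 0.40. Old 2 thus lay within the young range, while all ICM lysates lay above it. In 19 genes the old lysates lay above all young lysates (8.83% of all genes), and in 1 below (10.2%). RPL10, which joins the large subunit last and completes the peptidyl transferase centre, had log2 ratios of 0.07, -0.15 and -0.10 in young, 0.39, 0.40 and 0.95 in old and 0.74, 0.10 and 0.75 in ICM. It rose by 0.75 ± 0.18 in old (adjusted p = 0.0218), and the ICM value was 0.63 (adjusted p = 0.0831). The call for RPL10 in old was lost in 9 of 23 settings, with a value of 0.21 (adjusted p = 0.932) after thinning of the Ribo-seq libraries and 0.50 (adjusted p = 0.948) without old 3. RPS9 and RPL28 rose by 0.95 and 0.84 in old (adjusted p = 0.00553 and 0.00963), although in both genes young 1 lay near or above the lowest old lysate. Their calls were lost in 7 (RPS9) and 8 (RPL28) of 23 settings. Reads of RPL10, RPL28 and RPS9 were partly fractional, in 2, 1 and 0 Ribo-seq libraries and 6, 8 and 1 mRNA-seq libraries. These comparisons share the young libraries, so their values are not independent.

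Between ICM and old, 0 genes were called for efficiency by edgeR and 0 by DESeq2 (0.0650% of all genes called higher and 0.195% lower by edgeR), while 12 had an unadjusted p under 0.05. ICM lay above all old lysates in 9 genes (9.12% of all genes) and below in 3 (5.78%). The lowest value was that of RPL36A (-1.93 ± 0.48, adjusted p = 0.0604) and the highest that of RPL14 (0.82 ± 0.24, adjusted p = 0.144). The efficiency calls from young were also sensitive to the libraries used. In ICM the number, 10 with all lysates, was 2 without ICM 1, 6 without ICM 2, 4 without young 1, 1 without young 2 and 2 without young 3, and it was 3, 5 and 6 without old 1, 2 and 3. In old it was 7 with all lysates and 0 without old 1, old 3, young 2 or young 3.

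**Figure D4:**
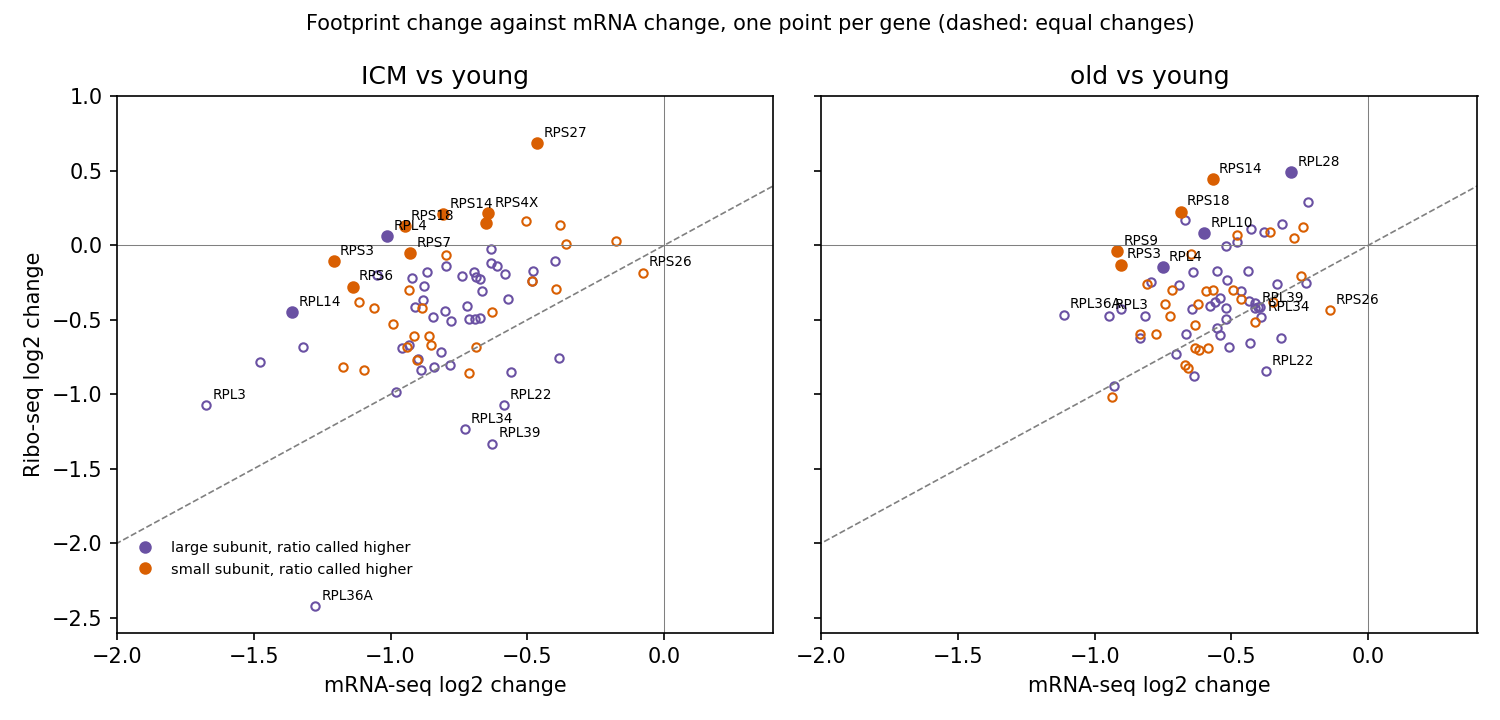
Log2 change in Ribo-seq (vertical axis) against that in mRNA-seq (horizontal axis) for the 77 genes in ICM (left) and old (right) compared with young, with large- and small-subunit genes in different colours, genes called higher for translational efficiency filled, and a dashed line where both changes are equal. Most genes lie above the line, RPS27 (0.69 in footprints) and RPL28 (0.49) stand highest, and RPL36A, RPL39, RPL34 and RPL22 lie below the line in ICM.

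Genes named for their role filled the range between these extremes. Of the stalk proteins, RPLP0 and RPLP1 fell by 0.88 and 0.61 in ICM mRNA (adjusted p = 1.10e-09 and 1.96e-08), and RPLP2 fell by 0.48. Their efficiency values in ICM, 0.56, 0.45 and 0.27, were not called. RPL5 and RPL11, partners of the 5S RNA, fell by 0.81 and 0.92 in ICM mRNA. The footprints of RPL5 fell by 0.71 (adjusted p = 0.00431), whereas the value of RPL11 was -0.22 (adjusted p = 0.432), and the efficiency values were 0.08 and 0.66 (adjusted p = 0.886 and 0.0665).

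RPS27A, made as a fusion with ubiquitin, fell by 0.92 in ICM mRNA and by 0.61 in footprints (adjusted p = 0.033). RPS2, at the mRNA entry, fell by 0.86 in ICM mRNA and by 0.60 in old footprints (adjusted p = 0.0195), and RPL41 fell by 0.66 in old footprints (adjusted p = 0.0268). For RPS19, RPS10, RPL38, RPSA and RPL13A, mRNA fell by 0.36, 0.50, 0.58, 1.11 and 1.05 in ICM, and neither footprints nor efficiency passed the test in ICM or old. Footprints of RPS19 and RPS10 had values of 0.01 and 0.16 in ICM.

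The subunits were then set side by side, with no test between them. In ICM compared with young, the median mRNA change was -0.78 over 46 large-subunit and -0.85 over 31 small-subunit genes. The median footprint change was -0.44 and -0.29, with 16 large-subunit and 7 small-subunit genes called lower, and 45 of 46 against 22 of 31 values below 0. Efficiency rose in 2 of 46 large-subunit and 8 of 31 small-subunit genes, with medians of 0.32 and 0.41. Without ICM 3 these were 2 and 5 genes. In old compared with young, efficiency rose in 3 large-subunit and 4 small-subunit genes, with medians of 0.27 and 0.29.

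Within each library, the ratio of large- to small-subunit reads in mRNA-seq was 1.55 to 1.56 in every young and ICM library and 1.61 to 1.67 in old. In footprints it was 1.67, 1.64 and 1.70 in young, 1.67, 1.70 and 1.68 in old, and 1.47, 1.43 and 1.62 in ICM. All ICM footprint libraries lay below all others, and ICM 3 was the nearest to them. These sums were not tested.

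Across the 77 genes, which are not independent replicates, the changes in mRNA and in footprints had a Pearson correlation of 0.40 in ICM compared with young and 0.33 in old compared with young. CDS length ran from 25 codons in RPL41 to 427 codons in RPL4. Its log2 correlated with the mRNA change at -0.47 in ICM and -0.46 in old, and with the efficiency change at 0.46 and 0.32. Longer genes tended to have lower mRNA and higher efficiency values. Because efficiency is the footprint change relative to the mRNA change, these tendencies are partly linked by construction. All points come from the same 18 libraries, short genes have fewer footprints, and these relations were chosen after the values were seen.

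Genes with and without the TOP motif at the start were compared by their medians only. The median mRNA change in ICM compared with young was -0.79 over 42 genes with the motif at the start and -0.77 over 20 genes without it. The median efficiency change was 0.26 and 0.51, with 6 and 3 genes called higher, and in old compared with young it was 0.20 and 0.35, with 5 and 2 genes. RPL4 and RPS4X, both shown above without the motif at the annotated base, were among the genes that rose. With 5 bases before to 10 bases after the start allowed, 50 of 62 genes had the motif. Some genes counted here as without it, RPL4 among them, therefore carry it near the annotated start. Genes with no RefSeq start in the table are not in these counts.

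Levels were compared between genes as footprints per codon, divided by the median ribosomal protein gene of the same library. In young cells, the 23 genes with whole reads throughout all lay within 2-fold of that median in every library. Of the 54 genes with a fractional value in at least 1 library, 45 or 46 did so. The lowest relative footprints per codon were 0.12 ± 0.04 for RPL13A (SD, n = 3), 0.16 ± 0.02 for RPSA and 0.30 ± 0.08 for RPL12, and RPS26, RPL21 and RPLP0 followed, all with fractional reads. Their order is therefore uncertain, since reads of these genes were divided with other symbols.

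The highest were RPL41, a protein of only 25 codons, at 2.81 ± 0.73, RPL37A at 1.87 ± 0.08 and RPL15 at 1.81 ± 0.06, and the last 2 did not differ beyond their spread. RPLP2 stood at 1.32 ± 0.09 in young, 2.06 ± 0.32 in old and 1.56 ± 0.51 in ICM, whereas RPLP0, the stalk protein to which RPLP1 and RPLP2 bind, stood at 0.48 to 0.55 in all conditions. RPL36A went from 0.51 ± 0.05 in young to 0.38 ± 0.11 in old and 0.09 ± 0.07 in ICM. RPS27 was at 0.96 ± 0.22 in young and 2.64 ± 1.61 in ICM, a spread that comes from ICM 3. Over all 54 fractional genes, 7 were called higher for efficiency in ICM, and over the 23 whole genes 3 were, with medians of 0.43 and 0.28.

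**Figure D5:**
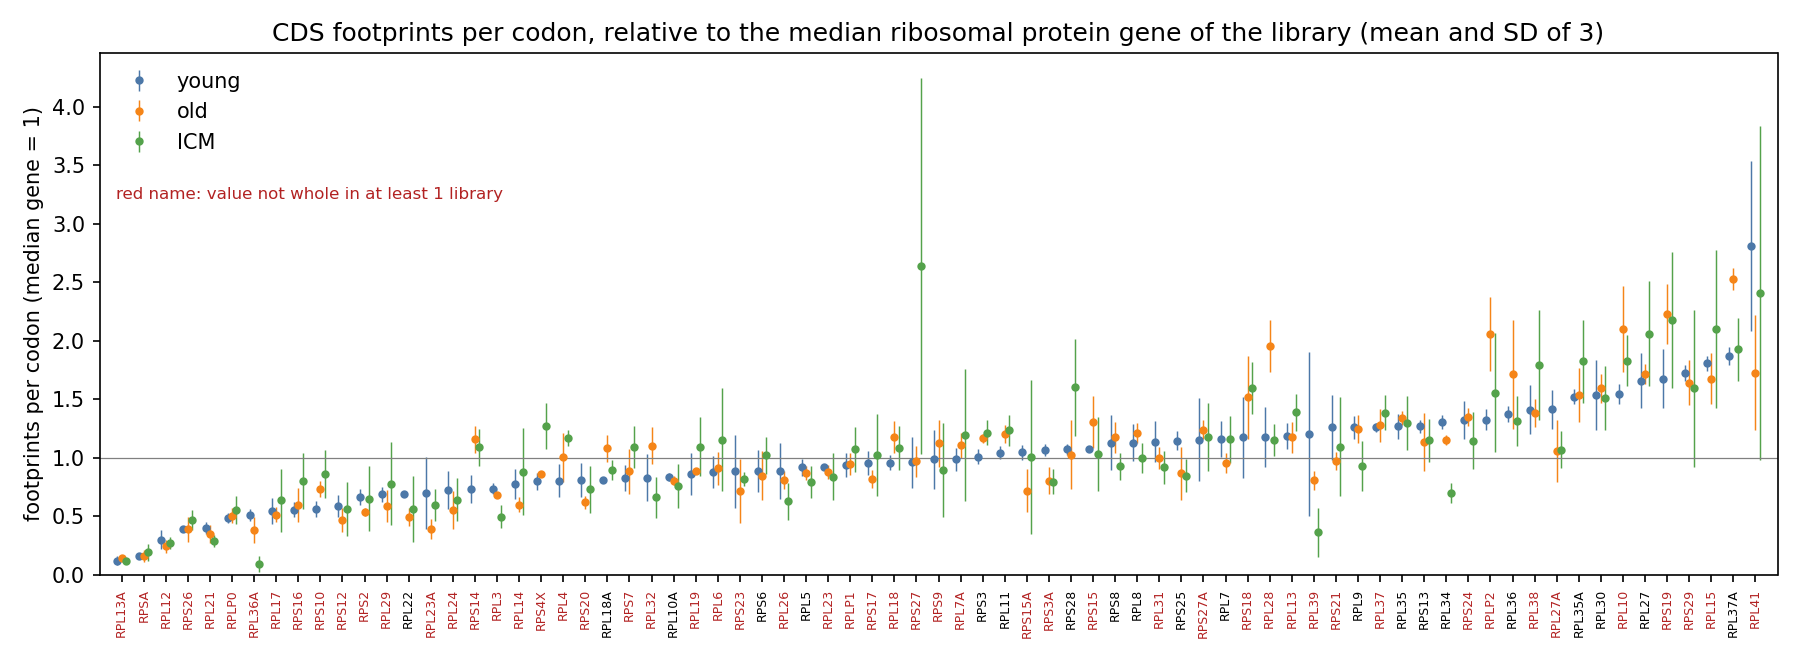
CDS footprints per codon of 75 ribosomal protein genes relative to the median gene of its library (points, means of 3 libraries; bars, SD), in young, old and ICM, ordered by the young value, with names in red where a value was not whole in at least 1 library. Values run from 0.12 (RPL13A) to 2.81 (RPL41) in young, and RPL36A (0.09) and RPS27 (2.64) leave the order in ICM.

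Of 20 symbols listed for other mRNAs known to carry TOP motifs, 19 were tested. The symbol without a test, GNB2L1, is an older name of RACK1. All 19 were lower in ICM mRNA and 18 in old, with medians of -0.89 and -0.67, where 36.1% and 33.7% of all genes were called lower. Efficiency rose in 5 of them in each comparison, where 1.41% and 0.845% of all genes were called higher. RACK1, a scaffold protein of the small subunit, fell by 1.18 in mRNA (adjusted p = 2.84e-12) with a footprint value of -0.10 (adjusted p = 0.701), and its efficiency rose by 1.06 in ICM (adjusted p = 0.000297) and by 0.73 in old (adjusted p = 0.0185). HNRNPA1, a splicing factor, fell by 2.03 in mRNA and by 1.64 in footprints (adjusted p = 8.15e-18 and 0.00787). VIM, the fibroblast filament protein vimentin, fell by 1.24 in ICM mRNA, while its old value was 0.11 (adjusted p = 0.109). EIF3F, a subunit of an initiation factor, fell by 1.19 in ICM mRNA (adjusted p = 6.95e-14).

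Among 14 regulators of TOP mRNAs, 5 rose and 6 fell in ICM mRNA, and 3 rose and 4 fell in old. These shares were near those of all genes, of which 34.9% rose and 36.1% fell in ICM and 32.4% and 33.7% in old. EIF4EBP1, the translational repressor that mTOR inactivates, fell by 2.04 in ICM and 1.36 in old (adjusted p = 2.16e-16 and 3.20e-13). DDIT4, an inhibitor of mTOR, fell by 2.32 and 1.69 (adjusted p = 3.89e-13 and 7.41e-11). SESN2 fell by 0.83 in ICM and SESN1 rose by 0.70, both sensors or inhibitors upstream of mTOR. Of 7 chaperones dedicated to single ribosomal proteins, 5 fell in ICM mRNA and 0 rose, and in old 5 fell and 1 rose, beside the same shares of all genes. Among those that fell in ICM was GRWD1, which escorts RPL3 (-0.95, adjusted p = 2.70e-09). PDCD2L, HEATR3, which carries RPL5, and LTV1 fell by 0.69, 0.58 and 0.51.

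For proteins of the mitochondrial ribosome, which are also made in the cytosol, calls went in both directions. Of 78 tested, 21 rose and 23 fell in ICM mRNA (median -0.09), and 11 rose and 35 fell in old (median -0.15). Of all genes, 34.9% rose and 36.1% fell in ICM, and 32.4% rose and 33.7% fell in old. Efficiency was called higher in 0 of 52 in both comparisons by edgeR and lower in 1 in ICM, with medians of -0.20 and -0.05, and 7 and 2 had an unadjusted p under 0.05. The difference between this list and the cytosolic one was not tested.

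Of 10 paralogs and fusion genes, 9 were tested and RPL3L was not. In ICM mRNA 1 rose and 5 fell, and in old 0 rose and 5 fell, beside the same shares of all genes. RPL22L1, the close relative of RPL22, fell by 3.25 in ICM mRNA and 2.21 in old (adjusted p = 5.38e-17 and 2.71e-14), from 136 ± 9.87 CPM in young to 14.3 ± 1.35 CPM in ICM (SD, n = 3), and its footprints fell by 2.38 and 1.79 (adjusted p = 1.36e-05 and 3.17e-07). RPL22 itself fell by 0.59 and 0.38 in mRNA. FAU, a ubiquitin-like fusion of a small-subunit protein, fell by 0.31 and 0.15 in mRNA (adjusted p = 0.000212 and 0.0409). RPS27L, a relative of RPS27, had mRNA values of 0.06 and -0.0074 (adjusted p = 0.508 and 0.942). RPL10L, RPL39L and RPL26L1 fell by 1.01, 1.06 and 0.52 in ICM mRNA, and RPL7L1 rose by 0.21 (adjusted p = 0.0036). The efficiency of RPL10L, whose sequence is close to RPL10, rose by 1.14 in ICM (adjusted p = 0.0421) and by 1.32 in old (adjusted p = 0.00139). Its footprints stood at 286, 426 and 284 CPM in young, old and ICM, and its mRNA at 43.8, 29.0 and 21.6 CPM. The footprints summed to 1425.3, which is not whole, so some of its reads were divided with other symbols. Whether they stem from RPL10 was not tested.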

How the data were processed

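The authors deposited, per library, estimated counts for each gene symbol in UTRs, CDS and other classes. Some are fractional. The aligner, counter and build of these tables are not given in the sources used here. The submitters' processing notes list STAR 2.6.0c, featureCounts, DESeq2, deepTools and GRCh37 without saying for which data. Footprints were taken from CDS and mRNA reads from UTRs plus CDS, rounded to whole numbers, and tested in R 4.3.3 with edgeR 4.0.16 (quasi-likelihood, TMM scaling, filterByExpr) over all genes of all 3 conditions, with Benjamini-Hochberg adjusted p under 0.05. Translational efficiency was the interaction of assay and condition over 18 libraries, with the lysate as a block. The lysate pairing comes from the study's methods. Deviations of both libraries of a lysate from their group means correlated at -0.07 to 0.12. SE values beside edgeR changes were back-calculated, as the absolute log2 change divided by the square root of the quasi-likelihood F statistic. DESeq2 1.42.0 was an alternative. Log2 ratios per lysate used 0.5 added counts.

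Values called whole lay within 0.001 of an integer. Codons came from GENCODE v44lift37 canonical CDS, in place of RefSeq protein lengths as planned. Members and lists were chosen with earlier results of these data known. Named genes were those fixed by role, the 3 highest and 3 lowest members per measure and comparison, all members called for efficiency, paralogs, and up to 4 genes of each other list with the largest mRNA change in ICM compared with young. RPL15, RPL21 and RPL37A were named after their values were seen. The model was tested on simulated counts. Replicates are separate cultures per the methods. Results of a few genes are not reported here.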

Additional observations from a re-analysis of the deposited data

How the results depend on the processing

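Leaving out each library in turn gave 75 to 76 genes called in mRNA-seq of ICM compared with young, 74 to 77 in old compared with young and 38 to 64 in ICM compared with old. For Ribo-seq the ranges were 13 to 35, 5 to 29 and 2 to 8, and for translational efficiency 1 to 7, 0 to 8 and 0 to 1. Counts over all genes moved as well. In Ribo-seq of ICM compared with young, 778 of 6720 genes were called without ICM 1 and 1419 of 7161 without ICM 2. The median footprint change between ICM and old ranged from -0.21 to 0.074. DESeq2 called 15, 6 and 3 genes in Ribo-seq and 5 and 2 for efficiency from young. Over all genes it called 688, 530 and 341 of 4643 in Ribo-seq and 92 and 41 of 4618 for efficiency. Thinning all Ribo-seq libraries to the shallowest left 8, 9 and 1 genes in Ribo-seq and 1 and 0 for efficiency. Over all genes these were 273, 159 and 187 of 1124, and 22 and 9 of 1121. Thinning moved the footprint median of old compared with young to -0.56, against -0.0089 over all genes. With an adjusted p under 0.15, the study's threshold, 35 and 43 genes were called in Ribo-seq from young, and 17, 18 and 2 for efficiency. Over all genes these were 1786 and 2347 of 4643, and 318, 155 and 61 of 4618. Without a filter on low counts, 12 genes were called in Ribo-seq of old compared with young and 0, 0 and 1 for efficiency. Over all genes these were 2044 of 13714, and 139, 58 and 39 of 13607. The medians moved to -0.59 (Ribo-seq, ICM compared with young), -0.22 (Ribo-seq, ICM compared with old) and 0.11 (efficiency, ICM compared with young). The medians over all genes moved as well, to -0.41, -0.38 and -0.45 in the same order. Without the lysates young 1 and old 2, 10 genes were called in Ribo-seq of ICM compared with old. The median of the set was -0.21, against -0.17 over all genes, of which 873 of 8113 were called. Efficiency was called in 5 genes in ICM compared with young and 1 compared with old, against 135 and 38 of 8074 genes. Without the shallowest lysate of each condition, a setting added after the data were seen, 31 genes were called in mRNA-seq of ICM compared with old and 37 in Ribo-seq of ICM compared with young. Efficiency was then called in 13 genes in old. Over all genes these calls were 7762 of 13220, 1865 of 8007 and 124 of 7966. Medians of the set were -0.73 (mRNA-seq, ICM compared with young), -0.25 (Ribo-seq, ICM compared with old) and 0.16 (efficiency, ICM compared with young). Those over all genes were -0.0011, -0.15 and -0.11 in the same order. Fitting only the compared groups gave 3 and 13 efficiency calls from young, and mRNA-seq CDS reads alone gave 3 in old. Over all genes these were 40 of 3012, 266 of 7473 and 51 of 4614. The cause of these shifts was not tested. With replicate numbers as a block across conditions, Ribo-seq of old compared with young had 10 calls, against 653 of 4643 over all genes. Same-numbered libraries of different conditions correlated at -0.23 to 0.30 in mRNA-seq and 0.0014 to 0.039 in Ribo-seq. Libraries that share a lysate correlated at only -0.07 to 0.12, so such correlations cannot decide whether the numbers pair the samples. Without the lysate as replicate block, efficiency was called in 21 and 25 genes, against 308 and 462 of 4618 over all genes. RPS27 in mRNA-seq of ICM compared with old changed sign to -0.012 with CDS reads alone. Scaling by DESeq2 size factors or without the 77 genes, rounding down and adding pseudogene reads kept every count within 1.5 times its reported value. The depth of the footprint libraries, down to 1761 footprints over 77 genes, limits what single genes can show.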

Other observations

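Footprints in the 5′ UTR of these genes made up 2.04% ± 1.98 (SD, n = 3) of their UTR and CDS footprints in young, 1.20% ± 0.65 in old and 0.68% ± 0.45 in ICM, ranges that overlapped. The 28 ribosomal protein pseudogene symbols, which share sequence with 18 of the 77 genes, held 7.45 ± 0.32 (SD, n = 3) reads per 100 footprints of the set in young, 7.78 ± 0.57 in old and 7.72 ± 0.12 in ICM. In mRNA-seq they held 4.45 ± 0.25, 4.63 ± 0.07 and 4.42 ± 0.20 reads per 100 in the same order. These differences were within the spread between replicates. In mRNA-seq, 3′ UTR reads made up 1.51% to 1.68% of the set's UTR and CDS reads in young, 2.27% to 2.35% in old and 2.28% to 2.49% in ICM, so every old and ICM library lay above every young library.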
